A study of Mus musculus with 4 samples.

Results

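The Kruppel-like factors (KLF) are DNA-binding proteins that regulate transcription, and 10 of their genes, Klf1 excluded, are described here in 32D-EpoR cells with and without erythropoietin (Epo), the hormone that drives red cell formation. The genes are Klf2, Klf3, Klf4, Klf6, Klf7, Klf9, Klf10, Klf11, Klf13 and Klf16, and they were taken by name from the gene column of the array files, with every probe of each. They had 12 probes among the 55681 gene probes and 36315 gene names of the array. 32D is a mouse myeloid progenitor line that lives on interleukin-3, and 32D-EpoR carries an introduced Epo receptor. Both groups share that receptor and the withdrawal of WEHI-conditioned medium, the interleukin-3 source, for RPMI with 10% serum. Cells of one group then received Epo at 10 U/ml, those of the other received none (0 U/ml), and no source used here states the time with Epo. Each group has 2 arrays, from experiments on cells of different passages, which limits the precision of every value. The results describe 1 line with an added receptor.

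All KLF proteins end in a run of C2H2 zinc fingers, which bind GC-rich and CACCC sequences in promoters and enhancers, so members can compete for the same sites. Outside the fingers they differ: Klf2, Klf4, Klf6 and Klf7 act mainly as activators, with Klf4 also a repressor, Klf3 represses through the CtBP corepressors, and Klf9, Klf10, Klf11, Klf13 and Klf16 recruit the SIN3A corepressor. In blood cells the family is best known for Klf1 in red cells, Klf2 in quiescent lymphocytes and Klf4 in monocytes.

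The arrays read each gene through 60-base probes, and the probes of the 6 genes that passed the test are shown because every value rests on such a stretch of transcript. They are written 5′ to 3′ as the 30 bases at the start of each probe, except the first Klf13 probe, which is whole because it lies in coding sequence. Its capitals mark a TGC and a pair of CAC triplets in an open frame at the spacing of the metal-binding positions of a C2H2 finger. The fingers are the part that family members share, and whether this probe also reads another KLF transcript was not tested. Positions are on the mouse build mm9, and the strand is read from the order of the coordinates.
Klf16, chr10:80030074-80030133, minus strand: gtaaacagggggaaaggactgaggttctta
Klf7, chr1:64082265-64082324, minus strand: ctgaccatcttgcgctccatatgaagagac
Klf11, chr12:25347324-25347383, plus strand: atttgtctactgaaagactaagttggaaaa
Klf10, chr15:38224255-38224314, minus strand: catatctcagaggtttctgacatgcaaact
Klf6, chr13:5869371-5869430, plus strand: tttaatactaagcagtccattctggtcagg
Klf13 first probe, chr7:71082854-71082913, minus strand: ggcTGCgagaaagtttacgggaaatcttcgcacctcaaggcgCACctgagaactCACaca
Klf13 second probe, chr7:71032482-71032541, plus strand: ttttagctttgaaagatacagcttccagaa

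The remaining probes lie at chr8:74845137-74845196 for Klf2, chr5:65221309-65221368 for Klf3, chr4:55540167-55540226 for Klf4, and chr19:23240410-23240469 and chr19:23243231-23243290 for Klf9. All of them except the minus-strand Klf4 probe lie on the plus strand. Whether these 5 probes and the 30-base stretches fall in coding or untranslated sequence was not analysed here.

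The 4 arrays lay on 1 slide and were scanned once. Between 41.3% and 47.9% of gene probes were well above background. The arrays with Epo were brighter, with a 75th percentile of 347 and 454 intensity units against 224 and 250 without Epo, and each array was scaled to that percentile. The median log2 change of all 17555 genes tested was -0.062 after scaling and 0.68 without it. Of 12 myeloid progenitor markers 11 were tested, among them the protease gene Ctsg, and 1 of these, Cebpa, was called lower (0.0097 without scaling), while Kit was above background on no array. Of 8 erythroid markers on the array, 5 were tested, and Alas2, the erythroid enzyme that starts heme synthesis, was above background on no array. The transferrin receptor gene Tfrc was called higher (1.53, limma adjusted p 0.00717) and the red cell factor gene Gata1 lower (-0.68, adjusted p 0.0231, but 0.070 without scaling). Of the macrophage, lymphoid and stromal markers, 3 of 6, 2 of 6 and 1 of 5 were tested. The macrophage marker Adgre1 was called higher (1.03) and Csf1r lower (-0.79, but 0.23 when the arrays were scaled on spike-in control probes instead). Cd3e and Cd4, both lymphoid, were called lower (-1.14 and -0.81), and neither was called without scaling, while Cd4 lay at 0.21 after spike-in scaling. The stromal marker Pdgfrb was called lower (-2.45). The part of these markers in the KLF results was not tested. In such bulk samples, fewer cells of a type and less RNA per cell cannot be told apart.

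Of the 10 genes, 8 passed the filter on dim probes and were tested, and Klf2 and Klf3 were not well above background on any array. With Epo, Klf16 and Klf7 rose and Klf11, Klf10, Klf6 and Klf13 fell relative to each array's 75th percentile, whereas Klf4 and Klf9 did not pass the test. A gene counted as risen or fallen when its limma p, adjusted by the Benjamini-Hochberg method over all genes tested, was under 0.05. Over all genes tested, 13.1% rose and 14.3% fell, so 2 rises and 4 falls among 8 genes stand beside that background. The changes of the 8 genes ran from -2.14 to 1.36 on the log2 scale, with a median of -0.19. In every one of the 8 the groups did not overlap after scaling, as in 68.8% of all genes tested. Groups that do not overlap must have the same direction in both experiments, so that agreement adds no support, and 4 genes were higher and 4 lower. The falls of Klf6 and Klf13 depend on scaling the arrays to each other, by the percentile or by quantiles, since without scaling Klf6 lay near 0 and Klf13 above it.

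**Figure D1:**
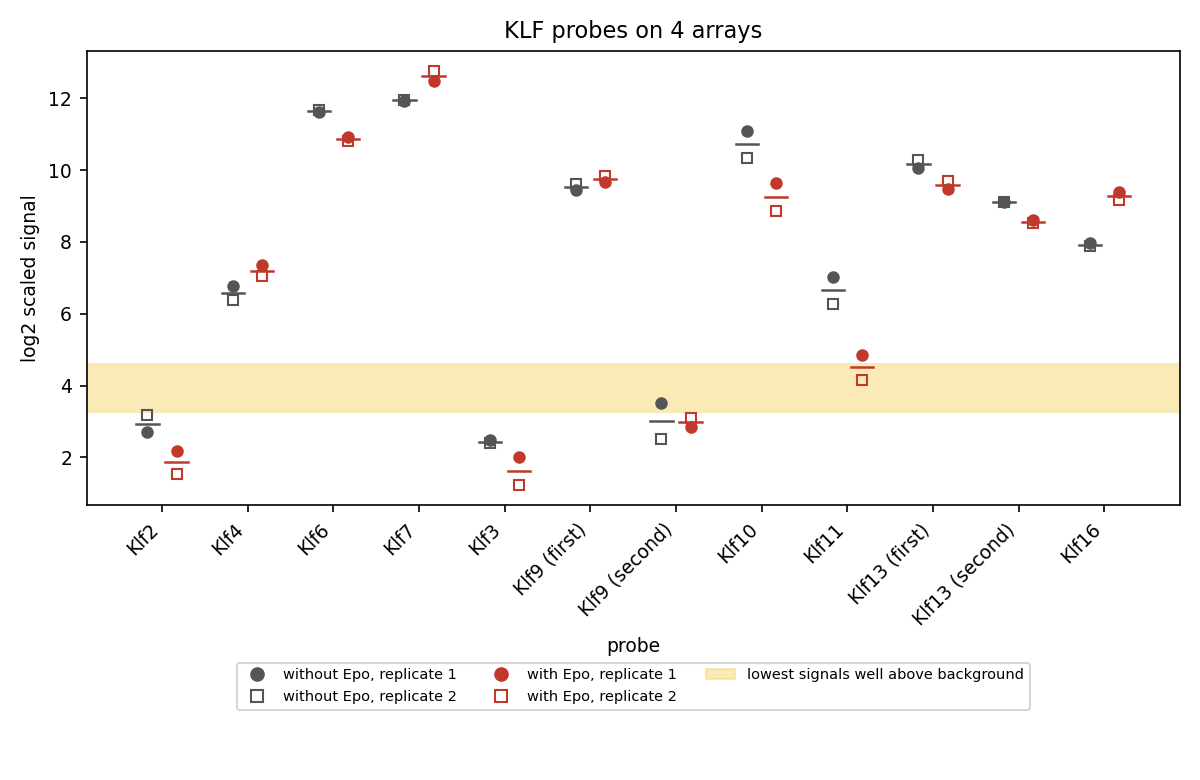
Log2 scaled signal (vertical axis) of the 12 KLF probes (horizontal axis) on each of 4 arrays, grey without and red with Epo, filled circles for replicate 1 and open squares for replicate 2, with a line at each group mean and a band over the lowest signals well above background on the arrays. Levels of different probes are not comparable. The 4 points of Klf2, Klf3 and the second Klf9 probe lie in or below the band, and Klf16 with Epo stands at 9.29 against 7.92 without.

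Among the activators, Klf7 was the gene that rose. It is known from neuronal and progenitor cells. Its processed signal was 2852 and 3235 intensity units without Epo and 6465 and 10211 with Epo, so both arrays with Epo were brighter than both without. On the log2 scaled signal this was 11.94 ± 0.013 (SD, n = 2) against 12.61 ± 0.19 (SD, n = 2), a rise of 0.67 ± 0.14 (SE), which is 1.59-fold (limma adjusted p 0.0314). Within the experiments the rise was 0.55 and 0.80. The call was lost with any 1 of the 4 arrays left out, where the limma adjusted p ran from 0.0607 to 0.145, and also under quantile normalization (0.0574) and with the percentile over detected probes (0.0533). The direction held in each of these, which with 1 array left out follows from groups that do not overlap.

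Klf4 is a reprogramming factor that also takes part in monocyte differentiation. Its signal was 79.5 and 68.2 without Epo and 185 and 196 with Epo, above background on all 4 arrays and brighter on both arrays with Epo. The scaled levels were 6.58 ± 0.27 and 7.20 ± 0.22 (SD, n = 2 each), a difference of 0.62 ± 0.20 (SE) that did not pass (limma adjusted p 0.0792), with an unadjusted 95% interval of 0.10 to 1.14. With the replicate number as a block, which compares within experiments (0.58 and 0.66), Klf4 passed at a limma adjusted p of 0.0186. That block calls 43.1% of all genes tested. With 1 array left out its limma adjusted p ran from 0.05004 to 0.272, and it passed in none of these 4 fits. With the normexp background, used here with 50 added to every signal, the difference was 0.29 (limma adjusted p 0.188).

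Klf6, known as a tumour suppressor and as an injury-response gene, had nearly equal raw signals. These were 2285 and 2666 without Epo and 2192 and 2653 with Epo, and here the groups overlapped. Scaled to the brighter arrays with Epo, the level went from 11.64 ± 0.042 to 10.86 ± 0.081 (SD, n = 2 each). The scaled difference of -0.78 ± 0.12 (SE) was a fall with a limma adjusted p of 0.0149, and without scaling it was -0.033. The call was lost without replicate 1 or replicate 2 of the Epo group (limma adjusted p 0.0563 and 0.0759).

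Klf2, the activator linked to lymphocyte quiescence, gave 4.76 and 7.40 intensity units without Epo and 5.15 and 4.28 with Epo. The lowest signal well above background ran from 15.0 to 20.8 over the arrays, so no level or change is given. Klf3, the repressor that binds CtBP, gave 3.50 to 4.58 over the 4 arrays and was treated in the same way. A low signal of 1 probe does not show that a gene is off.

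The SIN3A-binding members, which make up most of the 8 genes tested, held both the largest rise and the largest fall. Klf16, a repressor that competes with Sp1 at GC-rich sites, gave 182 and 193 intensity units without Epo and 762 and 858 with Epo. Each array with Epo was thus well above each without. The scaled level was 7.92 ± 0.056 without and 9.29 ± 0.15 with Epo (SD, n = 2 each). The rise of 1.36 ± 0.13 (SE), or 2.57-fold, had a limma adjusted p of 0.00699 and was 1.43 and 1.29 in the 2 experiments. It exceeded the change of 96.7% of all genes tested. The call held with each array left out.

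Klf11, which is induced by TGF-beta and restrains growth, was dim in the presence of Epo. Its signal was 95.6 and 63.0 without Epo and 32.8 and 26.7 with Epo, still well above background on all 4 arrays. The scaled level went from 6.65 ± 0.54 to 4.51 ± 0.49 (SD, n = 2 each), so that it fell by 2.14 ± 0.36 (SE) in log2 units, which is 4.40-fold (limma adjusted p 0.0188). In the 2 experiments the change was -2.18 and -2.10. Of all genes tested, 0.501% had a lower change. The call held with each array left out, but the size depends on the processing of dim signal. The normexp background correction, used here with 50 added to every signal, gave -1.22. The correction and the added 50 were not tested apart.

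Klf10, the TGF-beta inducible early gene and nearest relative of Klf11, fell as well. It gave 1606 and 1068 intensity units without Epo and 900.4 and 689 with Epo, and the groups did not overlap. The scaled level went from 10.73 ± 0.53 to 9.25 ± 0.55 (SD, n = 2 each), so that it fell by 1.48 ± 0.37 (SE) in log2 units, which is 2.79-fold (limma adjusted p 0.0482 among genes, and 0.05002, not called, in the fit over all probes). The spread lay between experiments, and within them the change was -1.47 and -1.49. Klf10 and Klf11 were both higher in replicate 1 than in replicate 2 of either group, by 0.69 to 0.78. The Klf10 call was lost without replicate 1 of the group without Epo (limma adjusted p 0.0797) and without replicate 2 of the Epo group (0.0918), and with the replicate block its adjusted p was 0.0110.

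Klf13, which in T cells regulates a chemokine gene, was the least firm fall. The first probe gave 776 and 1011 without Epo and 804 and 1222 with Epo, and these raw ranges overlapped. After scaling it lay at 10.16 ± 0.15 and 9.58 ± 0.15 (SD, n = 2 each). The difference of -0.58 ± 0.15 (SE) passed at a limma adjusted p of 0.0493 among genes, and with any 1 array left out the adjusted p rose to between 0.0591 and 0.220. Without scaling the change was 0.16.

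Klf9, a glucocorticoid- and thyroid hormone-responsive repressor, gave 513 and 641 without Epo and 920.3 and 1344 with Epo on its first probe. Both arrays with Epo were the brighter ones. After scaling the levels were 9.54 ± 0.11 and 9.75 ± 0.11 (SD, n = 2 each). The difference of 0.21 ± 0.13 (SE) did not pass (limma adjusted p 0.289, unadjusted 95% interval -0.14 to 0.56). It was 0.21 in each experiment.

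Where a gene has a pair of probes, they could be set side by side by their changes. In the fit over all 23735 kept probes, limma called 25.9% in either direction. The second Klf13 probe, 50313 bases from the first, gave 401 and 451 without Epo and 445 and 543 with Epo. Its change was -0.54 ± 0.12 (SE) with a limma adjusted p of 0.0364 among probes, against -0.58 and 0.0536 for the first probe in the same fit. Both probes thus gave a like scaled change. However, the second lies on the strand opposite to the Klf13 gene, and the file describes its clone as having a retained intron. Whether it reads the Klf13 messenger RNA was not tested, so it is not counted as a second reading of Klf13. The second Klf9 probe, 2762 bases downstream of the first on a predicted transcript, gave 4.70 to 12.8 intensity units and was well above background on no array.

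Because the arrays with Epo were brighter, the 8 genes were also compared without scaling and after scaling on 8 spike-in control probes, an alternative added after seeing the data. Without scaling 46.9% of all genes rose and 2.07% fell, and after spike-in scaling 76.6% rose and 1.41% fell. Klf16, Klf7, Klf4 and Klf9 were called higher in both. Their unscaled changes were 2.11, 1.42, 1.37 and 0.96, and their spike-in changes 2.38, 1.69, 1.64 and 1.23. Each lay above the median of all genes (0.68 and 0.96). Percentile scaling, no scaling and spike-in scaling differ by 1 constant per array, so each gene keeps its distance from that median. Position against the median is thus a single result, repeated under each scaling. Klf11 stayed lower, with a change of -1.39 without scaling and -1.12 after spike-in scaling, and was called in both (limma adjusted p 0.000114 and 0.0031). Klf10 was lower in both, at -0.73 and -0.46, but passed only without scaling (limma adjusted p 0.0468 against 0.139). Without scaling limma gave all 8 genes the same SE of 0.32, so the unscaled p-values do not measure a gene's own spread. Klf6 turned from -0.033 unscaled to 0.24, and Klf13 lay at 0.16 and 0.43, and neither gene was called in these fits. Every one of these 4 genes lay below the median of all genes. That holds under all 3 scalings by construction, since each gene keeps its distance from the median.

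**Figure D2:**
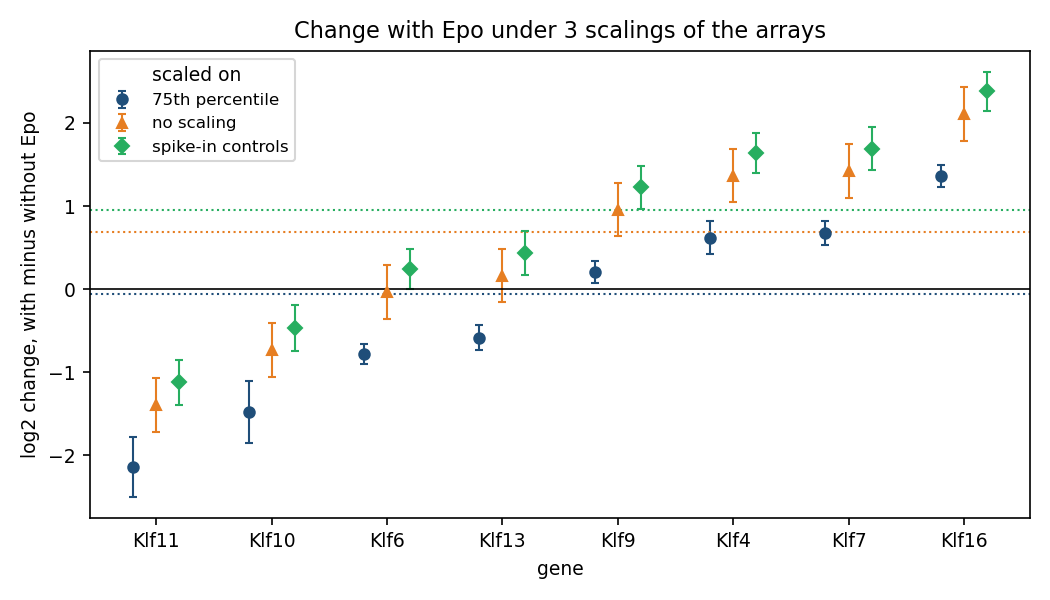
Log2 change with minus without Epo (vertical axis) of the 8 tested KLF genes (horizontal axis) scaled on the 75th percentile (blue circles), without scaling (orange triangles) and on spike-in controls (green diamonds), with SE bars from limma and dotted lines at the median change of all genes. Klf11 and Klf10 are below 0 and Klf16, Klf7, Klf4 and Klf9 above 0 under all 3, while Klf13 is -0.58, 0.16 and 0.43. Without scaling the SE is 0.32 for all 8 genes and does not measure each gene's own spread.

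**Figure D3:**
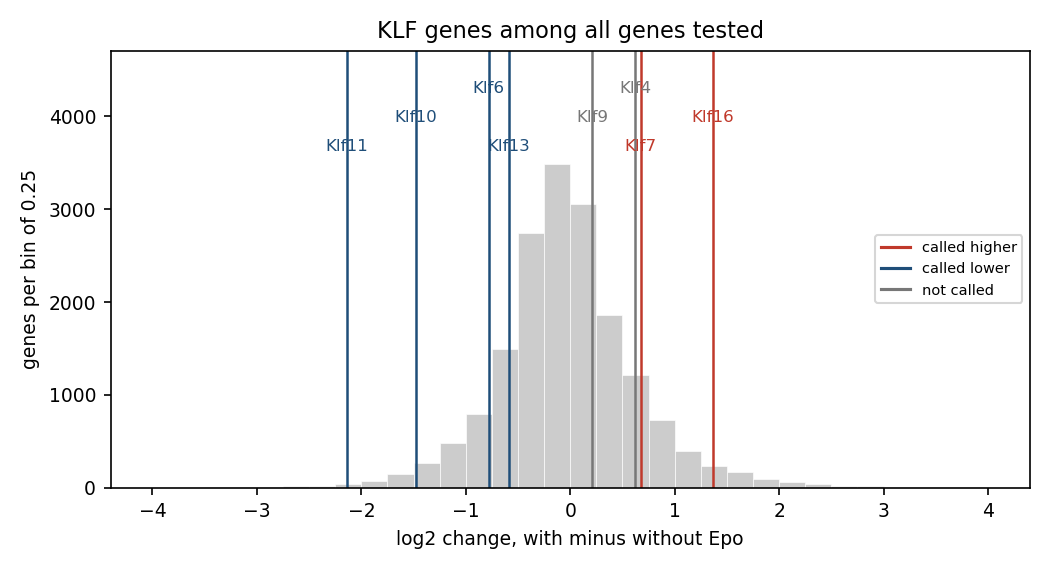
Number of genes (vertical axis) per bin of log2 change with minus without Epo (horizontal axis) over the genes tested, with a line for each KLF gene, red for called higher, blue for called lower and grey for not called. Klf11 at -2.14 lies in the lower tail and Klf16 at 1.36 in the upper one.

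The promoters are shown for Klf11, the largest fall, for Klf7, the rise with an entry, and for Klf9. The Epo receptor signals through STAT5, and the Klf9 window is the one that holds a match to TTCNNNGAA, the letters of a STAT5 element. Each is the 250 bases before the RefSeq start on GRCm38.p6, written along the gene's strand, with capitals for matches to that element, to the FOXO element TGTTTAC, to the E-box CACGTG and to TGACG, which is part of a cyclic AMP response element. RefSeq entries were found for 8 of the 10 genes, with none for Klf10 and Klf16.
Klf11 promoter, chr12:24651121-24651370, plus strand: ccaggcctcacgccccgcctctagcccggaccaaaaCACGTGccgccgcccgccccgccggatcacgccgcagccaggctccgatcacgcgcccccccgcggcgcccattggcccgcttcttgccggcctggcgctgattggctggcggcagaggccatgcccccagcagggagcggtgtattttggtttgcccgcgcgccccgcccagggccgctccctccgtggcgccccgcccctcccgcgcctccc
Klf7 promoter, chr1:64121390-64121639, minus strand: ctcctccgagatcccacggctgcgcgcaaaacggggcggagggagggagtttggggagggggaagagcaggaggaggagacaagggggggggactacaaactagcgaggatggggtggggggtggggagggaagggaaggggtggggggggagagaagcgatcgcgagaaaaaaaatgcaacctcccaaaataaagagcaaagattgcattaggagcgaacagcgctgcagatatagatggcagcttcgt
Klf9 promoter, chr19:23140976-23141225, plus strand: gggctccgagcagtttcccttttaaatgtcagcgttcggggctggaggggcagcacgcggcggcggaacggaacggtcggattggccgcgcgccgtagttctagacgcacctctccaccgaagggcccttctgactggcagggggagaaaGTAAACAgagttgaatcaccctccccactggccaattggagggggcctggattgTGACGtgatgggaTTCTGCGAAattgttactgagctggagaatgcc

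The 8 windows were GC-rich, at 59.2% to 78.4% GC against a median of 52.4% over 32851 promoters, with 13 to 32 CpG pairs against a median of 6. Motifs were searched on both strands. TTCNNNGAA matched 33 bases before the start of Klf9 and in 7.02% of all promoters, and TGTTTAC matched 100 bases before the start of Klf9 and in 3.17% of all promoters. CACGTG matched in Klf4, Klf6 and Klf11 and in 6.02% of all. The GC box GGGGCGGGG matched in 5 of the 8 windows and in 10.4% of all, TGACG in 4 and 17.8%, and CCAAT in 4 and 33.8%. CCACACCC, the CACCC box that Klf1 binds, matched in 0 of the 8 and in 3.20% of all. The MEF2 box matched 118 bases before the start of Klf2 and in 0.508% of all, and the SRF CArG box in 0 of the 8 and in 1.47% of all. The Klf7 window held none of these motifs. TGACG and CACGTG can overlap by the letters TG, and a match describes letters and no binding.

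Among the remaining KLF genes on the array, Klf1, Klf5 and Klf8 were tested and limma called 0 of 3. Their median change was -0.22. Klf5, an activator of proliferation genes, lay at -0.55 (limma adjusted p 0.219, and 0.0363 with the replicate block, where it was called lower). Klf8, a CtBP-binding repressor, lay at -0.22 (limma adjusted p 0.337). None of the 3 had an unadjusted p under 0.05, and all 3 lay above 0 without scaling. Klf12, Klf14, Klf15 and Klf17 were above background on no array.

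The Sp factors share the fingers and the GC-rich sites of the KLF proteins. Of 9 on the array 4 were tested, 2 fell and 0 rose, with a median of -0.56, and without scaling, where neither fall was called, of 0.18. Sp3, which can activate or repress, fell by 1.30 (limma adjusted p 0.0116), with -0.55 unscaled and not called. Its probe was well above background on 3 of the 4 arrays and passed the filter only through the group without Epo. The scaled levels of Sp3 with Epo were 3.88 and 3.85, so dim signal limits the size and p of this fall. Sp2 fell by 0.92 (limma adjusted p 0.0110), with -0.18 unscaled and 0.095 after spike-in scaling. Of 18 corepressor and coactivator genes that KLF proteins bind, all were tested, 1 rose and 1 fell, with a median of 0.035. Ctbp2, the corepressor of Klf3 and Klf8, rose by 0.62 (limma adjusted p 0.0220). Crebbp, an acetyltransferase that KLF activators recruit, fell by 0.54 (limma adjusted p 0.0319), although it lay at 0.20 without scaling. With the replicate block 5 rose and 2 fell, and without scaling 10 rose and 0 fell. Of 6 genes of ubiquitin ligases that act on KLF proteins, Fbxw7 rose by 0.70 (limma adjusted p 0.0432, lost with the block at 0.0538) and 0 fell. With the block 2 of the 6 rose, without scaling 5, and the median was 0.46.

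Regulators that lie upstream of single members were listed as well. The MEK5, ERK5 and MEF2 cascade induces Klf2 and Klf4 and is held back by class IIa deacetylases. Of its 12 genes 10 were tested, of which 2 rose and 3 fell, with a median of -0.22. Mapk7, the ERK5 gene, was above background on 1 array and Mef2c on none, and neither was tested. Mef2d and the deacetylase gene Hdac9 rose by 0.96 and 0.74 (limma adjusted p 0.0399 and 0.0298). Hdac7 and Mef2b fell by 0.87 and 0.59 (limma adjusted p 0.0126 and 0.0328), although Mef2b lay at 0.15 without scaling and Hdac7 at 0.15 after spike-in scaling. With the block 3 rose and 5 fell, and without scaling 4 rose and 0 fell, with a median of 0.53. TGF-beta induces Klf10 and Klf11, and of 12 genes of its pathway 9 were tested, 1 rose and 1 fell, with a median of -0.059. The receptor gene Tgfbr2 fell by 0.94 (limma adjusted p 0.0119), with 0.080 after spike-in scaling, and the SMAD repressor Tgif1 rose by 0.56 (limma adjusted p 0.0427). With the block 2 rose and 2 fell, and without scaling 4 rose and 0 fell, with a median of 0.69.

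Glucocorticoids induce Klf9, and of 9 genes of the receptor and its targets 7 were tested, of which 0 rose and 3 fell, with a median of -0.38. The leucine zipper gene Tsc22d3 and the zinc finger gene Zbtb16 fell by 1.56 and 1.54 (limma adjusted p 0.00704 and 0.00603), and were called lower without scaling too. Over the 7 genes, 2 rose and 2 fell without scaling, with a median of 0.37, and 1 rose and 3 fell with the block. Klf9 itself lay at 0.21 and was not called. Of 6 known Klf2 targets 3 were tested, and the integrin gene Itgb7 fell by 0.75 (limma adjusted p 0.0154), with -0.00080 unscaled and 0.27 after spike-in scaling. The median of the 3 was -0.18, and 0.57 without scaling, where 1 rose and 0 fell, while the block gave 1 and 1. Of 12 quiescence genes 9 were tested, 0 rose and 4 fell, with a median of -0.45. Without scaling 2 rose and 1 fell, with a median of 0.29, and with the block 1 rose and 5 fell. Ccng2, a cyclin of resting cells, and Cdkn1b, the p27 inhibitor, changed by -3.11 and -1.17, both falls (limma adjusted p 0.00397 and 0.00864), and lay at -2.37 and -0.42 without scaling, where Ccng2 alone of the 2 was called.

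**Figure D4:**
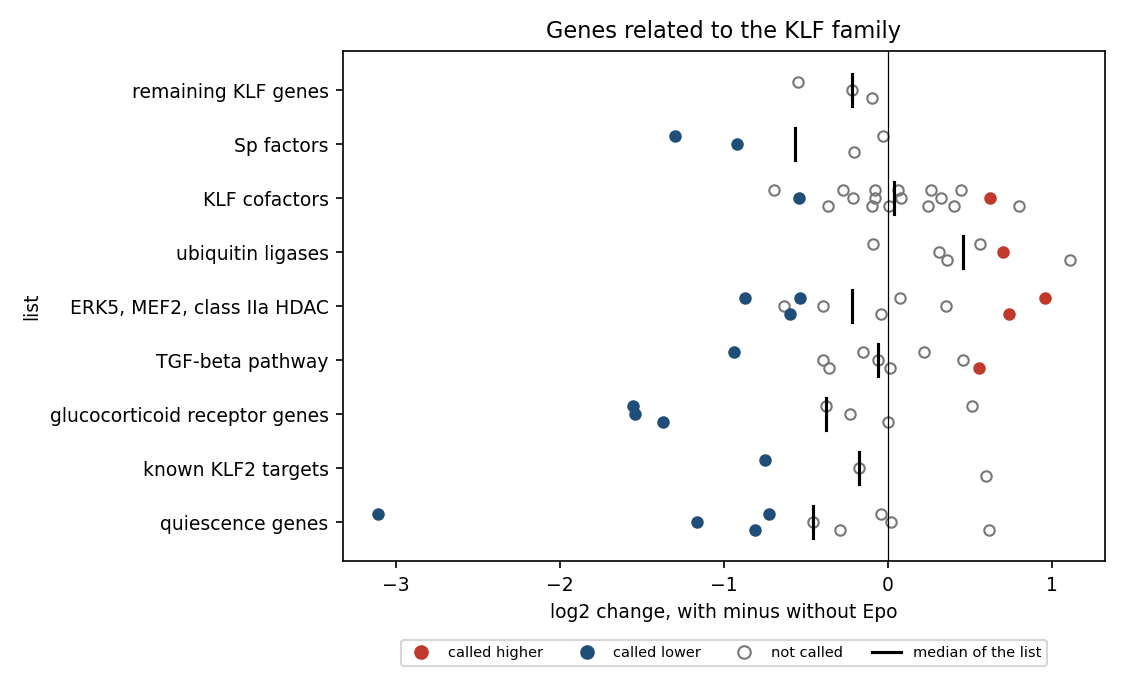
Log2 change with minus without Epo (horizontal axis) of the tested genes of 9 lists related to the KLF family (vertical axis), red for called higher, blue for called lower, open for not called, with a bar at each list's median. The 2 leftmost Sp factors are Sp3 and Sp2, and Ccng2 at -3.11 is the lowest point shown.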

How the data were processed

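Cy3-labelled RNA of 32D-EpoR cells, 2 samples given Epo and 2 not, was hybridised to 1-colour Agilent arrays. The deposited intensity values are the authors' scanner output of Feature Extraction 10.1.1.1, corrected for background but not scaled between arrays, per the file headers. Per the submitters' processing notes limma was used, with no version or role stated. The members and lists were chosen with earlier results of these data known, and the lists come from textbook knowledge.

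Here the log2 processed intensity of each array was reduced by its 75th percentile over the 59305 non-control spots, and the mean percentile was added back. Outlier spots were left out (9 probes lost their value), and no spot was saturated. Probes that both arrays of a group, either one, showed well above background were kept, which left 23735 probes of 17555 genes, each gene read by its brightest kept probe. Gene names follow the RefSeq table of GRCm38.p6, used for names alone: of 55681 probes, 26413 matched an accession, 3859 a symbol, 735 a synonym, and the other 24674 stayed as in the file. Probe positions are those of the files, on mm9. Coordinate order gave the gene's strand for 20926 of 21021 probes.

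The groups were compared by the two-sided moderated test of limma 3.58.1 (R 4.3.3). P-values were adjusted by Benjamini-Hochberg over all genes or, for single probes, all kept probes, and called under 0.05. Residual degrees of freedom were 2 (4.57 in total), the median SE was 0.145, and 0.43 was the smallest change called. Beyond all members, the text names from each list up to 2 called genes in each direction with the largest changes, or the 2 with the smallest p where none was called. The 14 alternatives cover background correction, scaling, filter, probe choice, variance prior, replicate block and each array left out. The fit was tested on simulated data.

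The design text speaks of 2 independent experiments, and the replicate numbers were read as these, which pairs the samples. Deviations of same-numbered arrays from the group means correlated at 0.386 over genes, which are not independent. The paired fit, with the number as a block and 1 residual degree of freedom, called 7565 genes against 4804. Beyond the different passages no source used here describes how the samples were kept apart.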

Additional observations from a re-analysis of the deposited data

How the results depend on the processing

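Against 2 members called higher and 4 called lower, 1 was higher with the percentile over detected probes and 1 under quantile normalization. No scaling gave 4 higher and 2 lower, spike-in scaling, chosen after seeing the data, 4 and 1, and no filter on dim probes 0 and 0. Calls without scaling rest on an SE of 0.32 that all 8 tested members share, and the unscaled list counts come from the same fit. With 1 array left out, 1 was higher each time and 1 to 3 were lower. The replicate block gave 3 and 4, with Klf4 added, and changed no other member's call. Without the filter limma called 0 of 36310 genes, with 7148 and 7 members at an unadjusted p under 0.05. Klf13 reversed to 0.162 without scaling and 0.433 with spike-in scaling, its second probe to 0.208 and 0.478, and Klf6 to 0.237 with spike-in scaling. The directions of Klf16, Klf7, Klf4, Klf9, Klf11 and Klf10 held in all 14 alternatives, but only background correction and scaling could have reversed them. The filters, the probe mean, the block and the variance prior left these changes as they were. Groups that do not overlap keep their direction with 1 array left out. Klf16 and Klf11 were called in 13 of them, Klf10 in 10, Klf6 in 9, Klf13 and Klf7 in 7, Klf4 in 3 and Klf9 in 2. Over all genes, 4804 calls became 8595 without scaling, 13695 with spike-in scaling, 7565 with the block, and 2273 to 3963 with 1 array left out. The share of calls that were higher, 47.9%, was 34.0% with the percentile over detected probes, 95.8% without scaling and 98.2% with spike-in scaling. Dim signal over background limits Klf2, Klf3, Klf4 and Klf11, and normexp, with 50 added to every signal, moved Klf4 from 0.62 to 0.29.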

Other observations

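The replicate numbers of Klf10 and Klf11 differed more than those of most genes. Replicate 2 minus replicate 1 was -0.75 for Klf10 without Epo and -0.78 with Epo, and -0.77 and -0.69 for Klf11, on the log2 scaled signal. The size of this difference, averaged over both groups, exceeded that of 97.8% of genes for Klf10 and 97.4% for Klf11, where the median size over all genes was 0.19 without and 0.16 with Epo. Klf4 differed by -0.38 and -0.31, and Klf13 went the other way, by 0.22 and 0.22. Klf9 differed by 0.16 and 0.16, Klf16 by -0.080 and -0.22, Klf7 by 0.019 and 0.27, and Klf6 by 0.060 and -0.11. With the replicate number as a block, limma called 0 genes by replicate number, with 4166 at an unadjusted p under 0.05. The adjusted p of the 8 KLF genes ran from 0.185 to 0.855 there. These genes were picked out after their values were seen.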
